A study of Mus musculus with 53 samples.

Results

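The core loop of the circadian clock was described here through 10 genes, Arntl, Npas2, Clock, Per1, Per2, Per3, Cry1, Cry2, Nr1d1 and Nr1d2, of the 49568 genes listed in the deposited values of mouse sciatic nerve. The rows were found by gene symbol, and all 10 symbols were present and passed the filter on low values (a mean log2 value of at least that of a linear value of 10). The members had been chosen from earlier results on these same samples, that is, on their levels in the 8 groups and on their differences at each age. Those levels, and every difference between groups that follows from them, also between ages and between contrasts, are therefore given as a description with no test. The differences between runs of library numbers within groups were tested.

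RNA from 53 nerves of male C57BL/6J mice was sequenced to compare a model of prediabetes and a model of type 2 diabetes with mice on standard diet (SD), and to follow a return to the control diet. According to the study's paper, the libraries selected polyadenylated RNA and did not keep the strand. At 16 weeks of age there were 5 SD mice, 7 mice on a high-fat diet (HFD) with 60% of kcal from fat from 5 weeks of age, and 5 HFD mice that also received streptozotocin (STZ), a toxin of pancreatic beta cells, at 12 weeks in doses of 75 and 50 mg/kg given 3 days apart (HFD-STZ). At 24 weeks there were 8 SD, 7 HFD and 8 HFD-STZ mice, and 7 HFD-DR and 6 HFD-STZ-DR mice, which had been moved at 16 weeks to the control diet (13% of kcal from fat in the series' text, where the paper's diet table gives 10%) for 8 weeks, a step called dietary reversal (DR). Groups are named below with their age, so that SD16 stands for the SD mice of 16 weeks. The mice lived under a light-dark cycle, and the time of day at which each nerve was taken was not given in the sources used here.

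In the mammalian clock, Arntl (also called Bmal1) pairs with Clock or its relative Npas2, and the pair drives transcription of the Per and Cry genes from E-box sequences. The Per and Cry proteins then return to the nucleus and hold the pair back, which closes the loop over about a day. The receptors Nr1d1 and Nr1d2 (Rev-erb alpha and beta) form another arm and repress Arntl and Npas2 through ROR elements, so that in a clock running in a peripheral tissue Arntl and Npas2 peak at the opposite side of the day from Nr1d1, Per and the D-box factor Dbp.

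Values are log2 values that the authors normalized between samples, and they are not divided by gene length, so levels are compared between groups and not between genes, and the gene that leads a marker list below is only the one with the highest deposited value. They keep no read counts, and although the paper states an approximate number of reads for its samples, the reads behind each gene are not known. On the linear scale their sum per sample without the values above 22, given in units of 1e+06, lay between 41.2 and 49.1, and correlations between samples over the genes past the filter ran from 0.916 to 0.994. The sciatic nerve was recognisable in its Schwann cell markers, 7 of 7 present, led by Pmp22, and a mean log2 value per sample of the 7 markers that averaged 17.91 ± 0.15 (SD, n = 5) in SD16 and 17.51 ± 0.22 (SD, n = 7) in HFD24. Defining markers of other tissue were present too. The mean of the 7 adipocyte markers, led by Cfd, was 10.04 ± 1.78 (SD, n = 5) in SD16, 12.31 ± 0.76 (SD, n = 7) in HFD16, 11.11 ± 1.36 (SD, n = 5) in HFD-STZ16, 11.85 ± 0.92 (SD, n = 8) in SD24, 12.53 ± 1.17 (SD, n = 7) in HFD24, 12.55 ± 1.09 (SD, n = 8) in HFD-STZ24, 11.42 ± 1.12 (SD, n = 7) in HFD-DR24 and 10.39 ± 1.05 (SD, n = 6) in HFD-STZ-DR24. Summed on the linear scale, these markers had group medians from 30045 in HFD-STZ-DR24 to 108141 in HFD-STZ24, and 0 of the 7 was at 0. The mean of the 6 skeletal muscle markers, led by Acta1, ranged from 7.55 ± 0.99 (SD, n = 5) in HFD-STZ16 to 12.45 ± 2.32 (SD, n = 7) in HFD-DR24. In bulk nerve, fewer cells of a type and less RNA per cell cannot be told apart.

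One library stood apart. Of the 25 genes with a value above 22, 23 had it in HFD-STZ24 replicate 7. Among them were Calca, Scn10a and Tac1, genes of sensory neurons that were named after their values were seen. Calca, Scn10a and Tac1 stood at 57.95, 53.40 and 60.16, where the next highest library had 9.52, 7.09 and 7.14. The highest value of any cell type marker was 20.96 (Pmp22). Values above 22 were therefore not read as levels of expression, and their origin was not tested. The neuron cell body markers Rbfox3, Prph and Snap25 stood in HFD-STZ24 replicate 7 at 11.13, 14.55 and 14.53. The highest of the other 52 libraries had 6.26, 9.37 and 9.35. The motor neuron marker Chat stood at 1.83, near its lowest value. Its mean over all libraries (2.44) lay below the filter on low values, so nothing on motor neuron RNA is read from it. This library also held the lowest Clock value of all 53 (10.61) and the lowest Per1 value (9.87), so the HFD-STZ24 values it could move most are also given without it. Whether its neuronal RNA has a part in its clock gene values was not tested.

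**Figure D1:**
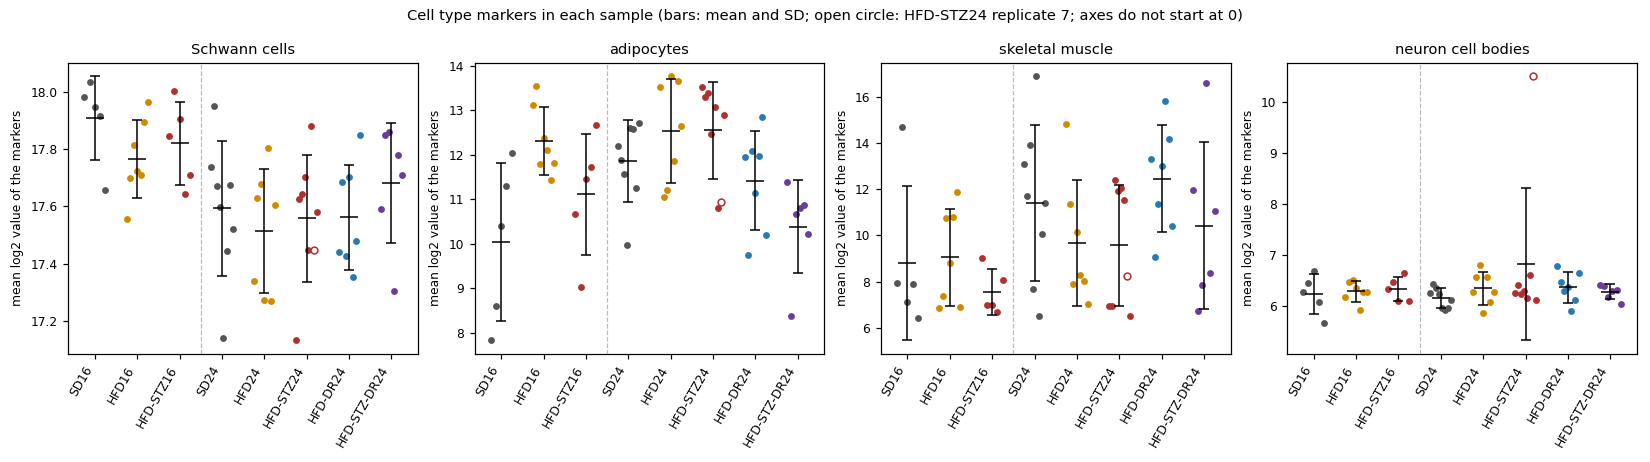
Mean log2 value of the marker genes of 4 cell types (vertical axes) in each sample of the 8 groups (horizontal axes), with bars for the mean and SD. Adipocyte and muscle markers vary by several log2 units within groups, and the open circle, HFD-STZ24 replicate 7, lies at 10.51 for the neuron markers, above every other sample.

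Short promoter sequences are shown for Arntl, Per3 and Nr1d1, members that stood on opposite sides at 16 weeks (below), and for Nfil3 and Ciart, companion genes that differed beside them. RefSeq promoters (250 bases before to 50 bases after a start, GRCm38.p6) were matched for 9 of the 10 members, with 13 starts in all, and Per2 had no entry. They were searched on both strands for the E-box CACGTG, its variant CACGTT, the D-box TTATGNAA, the ROR element TAGGTCA or TGGGTCA and the cAMP element TGACGTCA, which were held by 7.15%, 4.68%, 3.38%, 6.45% and 1.79% of 32851 promoters. Of the 9 members, 6 had a match, 2 for the E-box (Per1 and Cry1), 3 for its variant (Cry1, Cry2 and Nr1d1), 2 for the D-box (Per1 and Per3), 1 for the ROR element (Arntl) and 0 for the cAMP element, and no match overlapped another. Counted by start, 6 of the 13 had a match. The shares over all promoters are per promoter and per motif, so the counts per gene are not read against them. The first listed start of Arntl, chr7:113207215-113207514, had no match. Of the other companions searched, Tef had an E-box at both of its starts and Dbp had no match in its window. The sequences run 5′ to 3′ on the gene's strand, with matches in capitals. A match describes the letters and does not show binding.
Arntl, second listed start, chr7:113207261-113207560, plus strand, with a ROR element at bases 281 to 287: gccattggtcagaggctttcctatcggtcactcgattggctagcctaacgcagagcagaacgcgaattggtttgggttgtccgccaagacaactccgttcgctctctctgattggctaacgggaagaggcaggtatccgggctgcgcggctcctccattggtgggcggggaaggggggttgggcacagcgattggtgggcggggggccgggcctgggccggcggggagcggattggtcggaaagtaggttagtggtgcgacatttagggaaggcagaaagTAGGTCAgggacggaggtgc
Nfil3, chr13:52980990-52981289, minus strand, with a ROR element at bases 239 to 245 that reads on the other strand: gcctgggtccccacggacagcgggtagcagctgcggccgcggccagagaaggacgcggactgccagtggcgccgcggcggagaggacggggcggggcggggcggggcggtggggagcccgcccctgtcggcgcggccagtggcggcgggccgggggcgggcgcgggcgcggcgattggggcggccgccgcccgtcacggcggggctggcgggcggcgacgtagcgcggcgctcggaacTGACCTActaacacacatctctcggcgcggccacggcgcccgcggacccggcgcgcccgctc
Per3, chr4:151044616-151044915, minus strand, with D-boxes at bases 46 to 53 and 93 to 100: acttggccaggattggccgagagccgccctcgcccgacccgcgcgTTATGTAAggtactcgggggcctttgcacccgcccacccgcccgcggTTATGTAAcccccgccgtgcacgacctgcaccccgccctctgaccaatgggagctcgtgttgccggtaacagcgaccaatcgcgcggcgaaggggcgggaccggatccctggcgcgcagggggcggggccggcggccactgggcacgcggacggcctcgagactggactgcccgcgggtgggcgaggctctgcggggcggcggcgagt
Nr1d1, chr11:98775328-98775627, minus strand, with the E-box variant at bases 223 to 228 that reads on the other strand: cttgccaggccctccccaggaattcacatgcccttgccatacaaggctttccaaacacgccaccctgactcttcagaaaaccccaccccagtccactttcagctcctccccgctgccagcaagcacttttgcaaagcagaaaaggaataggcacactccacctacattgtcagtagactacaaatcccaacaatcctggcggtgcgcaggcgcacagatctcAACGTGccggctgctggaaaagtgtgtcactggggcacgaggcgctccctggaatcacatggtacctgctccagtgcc
Ciart, chr3:95882179-95882478, minus strand, with E-boxes at bases 135 to 140, 193 to 198 and 207 to 212: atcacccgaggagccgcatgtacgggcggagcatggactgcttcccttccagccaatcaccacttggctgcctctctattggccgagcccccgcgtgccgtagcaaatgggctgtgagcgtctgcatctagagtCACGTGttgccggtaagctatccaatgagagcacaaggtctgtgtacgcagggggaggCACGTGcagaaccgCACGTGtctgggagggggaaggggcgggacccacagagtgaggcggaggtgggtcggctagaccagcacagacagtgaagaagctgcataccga

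Arntl, the activator that the loop cannot run without, lies at chr7:113207465-113314126 on the plus strand (GRCm38, GENCODE M21). In SD16 its log2 values were 10.37, 10.33, 10.01, 9.94 and 9.61, and in HFD-STZ16 they were 9.35, 9.28, 9.33, 9.20 and 8.72. Those groups did not overlap, since the lowest SD16 mouse stood above the highest HFD-STZ16 mouse. HFD16 reached from 8.63 through a median of 9.20 to 9.81 and overlapped SD16 at its upper end. At 24 weeks SD24 reached from 9.09 (median 9.96) to 10.28, HFD24 from 9.17 (median 9.49) to 9.69, and HFD-STZ24 from 8.85 (median 9.18) to 10.31. A single SD24 mouse, replicate 4, lay below all 7 HFD24 mice, and the other SD24 mice lay at 9.64 or above. HFD-DR24 reached from 9.29 (median 9.66) to 9.93, between SD24 and HFD24, and HFD-STZ-DR24 from 8.72 (median 8.95) to 9.74, the lowest group median of the 8.

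The Arntl group means, highest first, were SD16 (10.05 ± 0.31 SD, n = 5), SD24 (9.90 ± 0.39 SD, n = 8), HFD-DR24 (9.64 ± 0.25 SD, n = 7), HFD24 (9.41 ± 0.23 SD, n = 7), HFD-STZ24 (9.40 ± 0.47 SD, n = 8), HFD16 (9.29 ± 0.45 SD, n = 7), HFD-STZ16 (9.17 ± 0.26 SD, n = 5) and HFD-STZ-DR24 (9.14 ± 0.45 SD, n = 6). The SD mice of both ages stood highest, and the SDs within groups were as large as the steps between most neighbours in this order. The log2 difference from SD mice of the same age was -0.76 ± 0.21 (SE) in HFD16, -0.88 ± 0.16 in HFD-STZ16, -0.49 ± 0.16 in HFD24, -0.49 ± 0.20 in HFD-STZ24, -0.25 ± 0.16 in HFD-DR24 and -0.75 ± 0.20 in HFD-STZ-DR24. All 6 differences were negative, and those at 1 age share their SD mice. Without HFD-STZ24 replicate 7 the HFD-STZ24 difference was -0.46 ± 0.21.

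Npas2, the relative of Clock that can take its place beside Arntl, lies at chr1:39193731-39363236 on the plus strand. Its log2 values in SD16 were 6.65, 7.65, 7.41, 7.96 and 7.48, and in HFD-STZ16 6.12, 6.38, 6.58, 7.09 and 6.90. All SD16 mice except replicate 1 stood above every HFD-STZ16 mouse. HFD16 ran from 5.83 (median 6.00) to 7.07, SD24 from 6.88 (median 7.33) to 8.69, HFD24 from 6.29 (median 6.93) to 8.01 and HFD-STZ24 from 5.95 (median 6.65) to 8.18. After the return to the control diet, HFD-DR24 ran from 6.23 (median 7.17) to 7.35 and HFD-STZ-DR24 from 5.79 (median 6.20) to 6.95, so that the HFD-STZ-DR24 range met the SD24 range only at its edge. Npas2 differed from SD by -1.10 ± 0.28 (SE) in HFD16, -0.82 ± 0.25 in HFD-STZ16, -0.41 ± 0.26 in HFD24, -0.67 ± 0.30 in HFD-STZ24, -0.39 ± 0.24 in HFD-DR24 and -1.19 ± 0.27 in HFD-STZ-DR24. Without SD24 replicate 6, Npas2 differed by -0.23 in HFD24, -0.50 in HFD-STZ24 and -0.22 in HFD-DR24, the highest of their alternatives. It was the member with the widest range of group means, from 6.27 ± 0.48 (SD, n = 6) in HFD-STZ-DR24 to 7.46 ± 0.56 (SD, n = 8) in SD24.

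Clock, the third activator (chr5:76209868-76304792, minus strand), did not share this pattern. Its group means lay between 11.43 ± 0.38 (SD, n = 8) in HFD-STZ24 and 11.77 ± 0.17 (SD, n = 5) in HFD-STZ16, and all 8 groups overlapped. The HFD-STZ24 mean without replicate 7 was 11.55 ± 0.21 (SD, n = 7), and its difference from SD24 moved from -0.24 ± 0.15 (SE) to -0.12 ± 0.11.

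Runs of library numbers and non-nerve markers were set beside Arntl, Npas2 and Per3, a repressor described below. The differences from SD follow in the order HFD16, HFD-STZ16, HFD24, HFD-STZ24, HFD-DR24 and HFD-STZ-DR24. With the run as a covariate, which compares mice within runs, Arntl differed by -0.77 ± 0.21 (SE), -0.91 ± 0.23, -0.47 ± 0.19, -0.49 ± 0.18, -0.23 ± 0.19 and -0.72 ± 0.20, Npas2 by -1.09 ± 0.29, -0.79 ± 0.32, -0.44 ± 0.26, -0.67 ± 0.25, -0.33 ± 0.26 and -1.17 ± 0.27, and Per3 by 0.57 ± 0.15, 0.58 ± 0.17, 0.35 ± 0.14, 0.22 ± 0.13, 0.28 ± 0.14 and 0.42 ± 0.14. With the adipocyte markers as a covariate Arntl differed by -0.48 ± 0.27, -0.71 ± 0.11, -0.54 ± 0.16, -0.61 ± 0.20, -0.23 ± 0.16 and -0.53 ± 0.25, Npas2 by -1.38 ± 0.38, -1.01 ± 0.22, -0.53 ± 0.27, -0.81 ± 0.31, -0.38 ± 0.25 and -0.88 ± 0.32, and Per3 by 0.68 ± 0.23, 0.70 ± 0.18, 0.41 ± 0.15, 0.19 ± 0.18, 0.25 ± 0.13 and 0.28 ± 0.16. Each difference kept its sign. The adipocyte markers did not all move together with diet. Their lead gene Cfd had a mean of 15.13 in SD24 and 13.26 in HFD24, while the mean of the 7 markers went from 11.85 to 12.53. This covariate may thus carry the diet itself, so these differences are not corrected for tissue content alone. With the muscle markers in place of the adipocyte markers the signs were the same. Arntl then ranged from -0.81 ± 0.16 in HFD-STZ16 to -0.26 ± 0.16 in HFD-DR24, Npas2 from -1.22 ± 0.27 in HFD-STZ-DR24 to -0.30 ± 0.21 in HFD-DR24 and Per3 from 0.18 ± 0.17 in HFD-STZ24 to 0.64 ± 0.19 in HFD-STZ16.

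**Figure D2:**
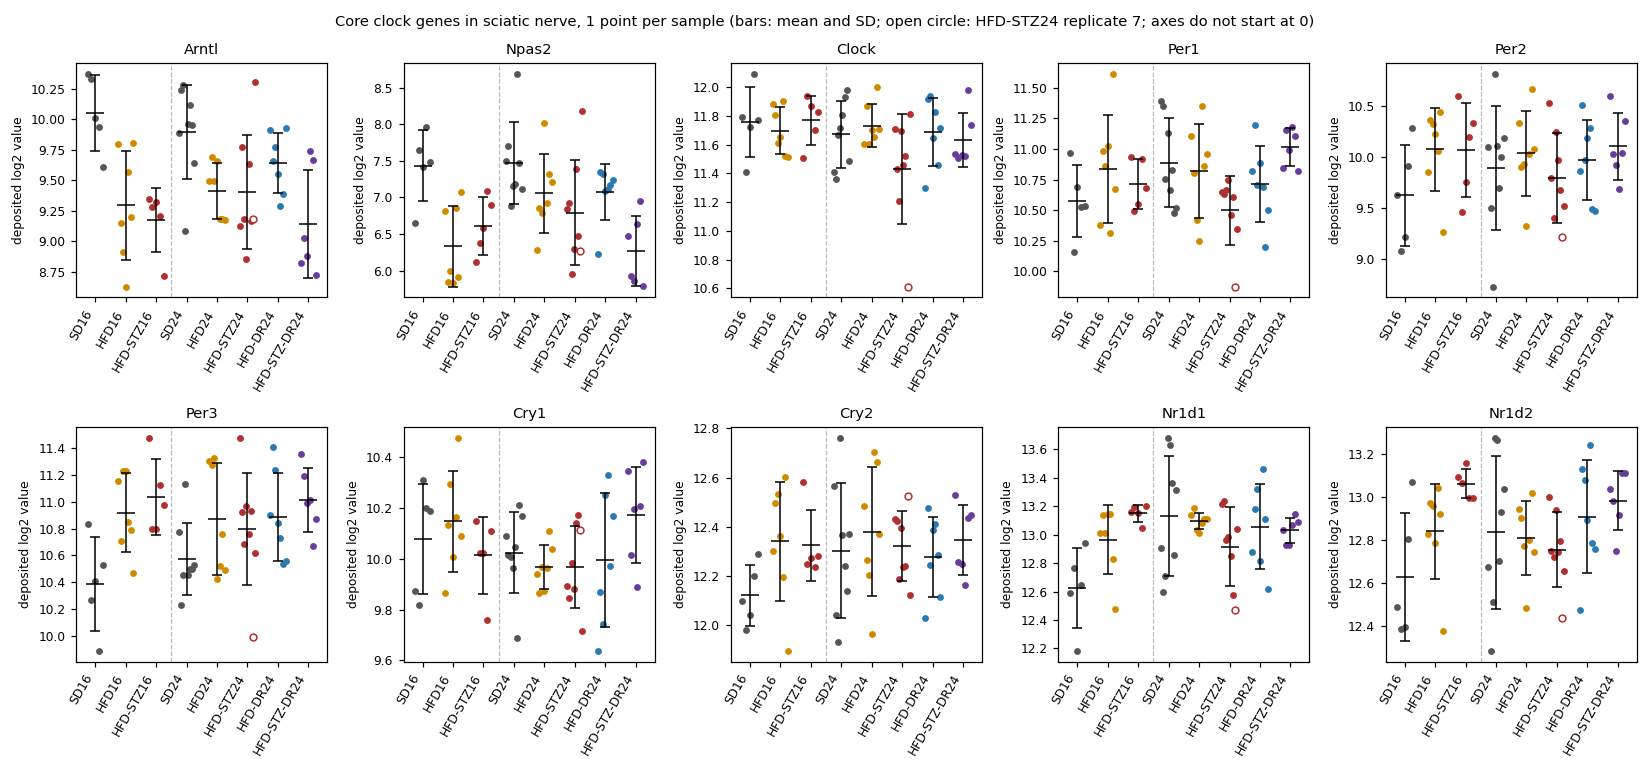
Deposited log2 value (vertical axes) of each core clock gene in each of the 53 samples, by group (horizontal axes), with bars for the mean and SD; the dashed line parts 16 from 24 weeks and the open circle is HFD-STZ24 replicate 7. For Arntl the SD16 samples lie at 9.61 and above and the HFD-STZ16 samples at 9.35 and below.

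Among the repressors, Per3 (chr4:151003652-151044665, minus strand), the member of the Period family that the loop can spare, stood opposite to Arntl. Its log2 values were 10.84, 10.27, 10.41, 9.89 and 10.53 in SD16 and 11.47, 10.80, 10.80, 11.13 and 10.97 in HFD-STZ16, so that 1 SD16 mouse reached into the HFD-STZ16 range. HFD16 ran from 10.47 (median 10.85) to 11.23, SD24 from 10.24 (median 10.50) to 11.13, HFD24 from 10.42 (median 10.76) to 11.32, HFD-STZ24 from 9.99 (median 10.84) to 11.47, HFD-DR24 from 10.54 (median 10.84) to 11.41 and HFD-STZ-DR24 from 10.67 to 11.35 (mean 11.02 ± 0.24 SD, n = 6). The 2 lowest group medians belonged to the SD mice of both ages. Per3 differed from SD by 0.53 ± 0.17 (SE) in HFD16, 0.65 ± 0.17 in HFD-STZ16, 0.30 ± 0.16 in HFD24, 0.22 ± 0.16 in HFD-STZ24, 0.31 ± 0.14 in HFD-DR24 and 0.44 ± 0.13 in HFD-STZ-DR24. Without HFD-STZ24 replicate 7, which had the value of 9.99, the HFD-STZ24 difference was 0.34 ± 0.13. The gene Camta1 spans all of Per3 on the same strand without sharing an exon, and reads from its introns could count toward Per3 only where they lie in Per3 exons.

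Per1 (chr11:69095217-69109960, plus strand) and Per2 (chr1:91415982-91459324, minus strand), the Period genes that also respond at once to glucocorticoid and cAMP signals, were less uniform. Per2 differed from SD by 0.45 ± 0.23 (SE) in HFD16 and 0.45 ± 0.26 in HFD-STZ16 (0.11 and 0.25 with the adipocyte markers as a covariate, the lowest of their alternatives), and by 0.14 ± 0.25, -0.10 ± 0.25, 0.08 ± 0.25 and 0.21 ± 0.25 in HFD24, HFD-STZ24, HFD-DR24 and HFD-STZ-DR24, with SD24 mice alone spread from 8.73 to 10.82. Without replicate 7 the Per2 difference of HFD-STZ24 was -0.01 ± 0.25. Without SD24 replicate 3, at 8.73, the Per2 differences in these groups were -0.02, -0.26, -0.09 and 0.05 in the same order, the lowest of their alternatives. Per1 differed from SD by 0.26 ± 0.20 in HFD16, 0.14 ± 0.14 in HFD-STZ16, -0.07 ± 0.18 in HFD24, -0.39 ± 0.15 in HFD-STZ24 (-0.30 ± 0.13 without replicate 7), -0.17 ± 0.16 in HFD-DR24 and 0.13 ± 0.15 in HFD-STZ-DR24. Over the alternatives Per1 ranged from 0.13 to 0.41 in HFD16, from 0.04 to 0.24 in HFD-STZ16 and from -0.16 to 0.03 in HFD24. It ranged from -0.45 to -0.30 in HFD-STZ24, from -0.25 to -0.09 in HFD-DR24 and from 0.02 to 0.20 in HFD-STZ-DR24. In HFD-STZ24 it thus stood on the side of Arntl and not of Per3. For Per1 the lowest and the highest group means were those of HFD-STZ24 (10.50 ± 0.28 SD, n = 8) and HFD-STZ-DR24 (11.02 ± 0.16 SD, n = 6). HFD-STZ24 mice reached from 9.87 (median 10.62) to 10.75 and HFD-STZ-DR24 mice from 10.82 (median 11.05) to 11.18. These groups did not overlap, and Per1 was the only member of which this was true in that comparison (1 of 10, beside 0.229% of 17868 genes, where chance gives 0.0666%). The difference was 0.52 ± 0.12 (SE), and 0.43 ± 0.08 without replicate 7.

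The cryptochromes, the partners of the Period proteins that do most of the repressing, differed least between groups among the repressors. Cry1 (chr10:85131700-85185064, minus strand) had group means between 9.97 ± 0.09 (SD, n = 7) in HFD24 and 10.17 ± 0.19 (SD, n = 6) in HFD-STZ-DR24. Cry2 (chr2:92403646-92434043, minus strand) had its lowest mean in SD16 (12.12 ± 0.12 SD, n = 5) and its highest in HFD24 (12.38 ± 0.26 SD, n = 7), and differed from SD16 by 0.22 ± 0.11 (SE) in HFD16 and 0.20 ± 0.09 in HFD-STZ16. At 24 weeks its 4 differences from SD lay between -0.02 and 0.08. A noncoding gene on the other strand, D930015M05Rik, shares 295 exon bases with Cry2 and had a mean log2 value of 3.76.

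Nr1d1 (chr11:98767932-98775333, minus strand) and Nr1d2 (chr14:18204054-18239127, minus strand), the receptors that repress Arntl, are described by the values below. Nr1d1 values were 12.59, 12.77, 12.18, 12.65 and 12.94 in SD16 and 13.16, 13.19, 13.15, 13.04 and 13.20 in HFD-STZ16. These groups did not overlap, and the HFD-STZ16 mice lay within a narrow band (SD 0.06). HFD16 ran from 12.48 (median 13.01) to 13.15, and SD24 from 12.59 (median 13.11) to 13.68, a wide range that held all 7 HFD24 mice, 13.01 to 13.18. The difference from SD was 0.34 ± 0.14 (SE) in HFD16 and 0.52 ± 0.12 in HFD-STZ16, against -0.03 ± 0.15 in HFD24, -0.21 ± 0.16 in HFD-STZ24, -0.08 ± 0.17 in HFD-DR24 and -0.10 ± 0.16 in HFD-STZ-DR24. Nr1d2 differed by 0.21 ± 0.14 and 0.44 ± 0.12 at 16 weeks, and by -0.03 ± 0.14, -0.08 ± 0.13, 0.07 ± 0.15 and 0.15 ± 0.14 at 24 weeks in the same order. Without HFD-STZ24 replicate 7 the HFD-STZ24 difference was -0.15 ± 0.16 for Nr1d1 and -0.03 ± 0.13 for Nr1d2. Signs were kept in all alternatives except for Nr1d2 in HFD16 (20 of 21), HFD24 (19 of 24) and HFD-DR24 (23 of 24) and for Nr1d1 in HFD24 (22 of 24) and HFD-DR24 (23 of 24). Over the alternatives the HFD16 difference ranged from 0.21 to 0.42 for Nr1d1 and from -0.05 to 0.32 for Nr1d2.

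The end of Nr1d1 overlaps that of Thra, the thyroid hormone receptor alpha gene on the other strand (chr11:98740638-98769006), over 1075 bases, of which 263 are exon bases of both. The library did not keep the strand, so reads from this stretch cannot be told apart. Thra itself had group means between 11.81 ± 0.21 (SD, n = 5) in SD16 and 11.91 ± 0.12 (SD, n = 8) in HFD-STZ24, and differed from SD16 by 0.07 ± 0.10 (SE) in HFD16 and 0.06 ± 0.10 in HFD-STZ16.

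**Figure D3:**
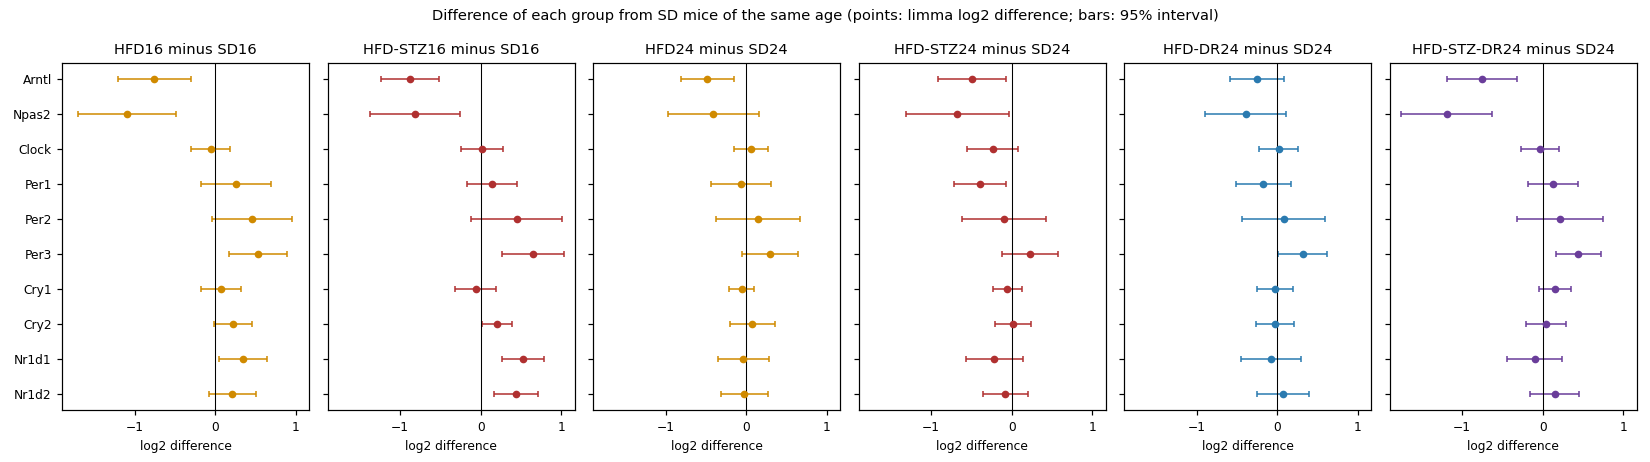
Log2 difference (horizontal axes) of each core clock gene (vertical axis) between a group and SD mice of the same age, with 95% intervals from limma. The points of Arntl and Npas2 lie left of 0 in all 6 comparisons, and those of Per3 right of 0, while Nr1d1 lies at 0.52 in HFD-STZ16 and at -0.21 in HFD-STZ24. Of these genes, intervals cross 0 for Arntl in HFD-DR24, for Npas2 in HFD24 and HFD-DR24 and for Per3 in HFD24 and HFD-STZ24. The interval of Nr1d1 in HFD-STZ24 crosses 0 too.

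Activators and repressors were then set side by side. In HFD16 against SD16, 3 of the 10 members were lower (the activators Arntl, Npas2 and Clock) and 7 higher, all of them repressors, with a median log2 difference of 0.22 beside 0.01 over all 17966 genes tested. Clock was nearly level there (-0.06 ± 0.11 SE), and Clock, Cry1 and Nr1d2 each took the other sign in 1 of 21 alternatives. In HFD-STZ16 against SD16, the lower ones were Arntl, Npas2 and Cry1 (-0.07 ± 0.12 SE), Clock (0.01 ± 0.12) kept its sign in 12 of 19 alternatives, and the median over the members was 0.17 beside 0.02. In HFD24 and HFD-STZ24 against SD24, 4 and 2 of the 10 were higher, with medians of -0.03 and -0.16 beside 0.01 and 0.00 over all genes (without HFD-STZ24 replicate 7, 1 higher and a median of -0.10), and the Arntl and Npas2 differences were not matched by higher Nr1d1 or Nr1d2 values. Per1 kept its sign in 22 of 24 alternatives and Per2 in 23 in HFD24. For HFD-STZ24, Cry2, a member that was higher, kept its sign in 20 of 25 and Per2 in 24. HFD-STZ-DR24 against SD24 had all 3 activators lower (Clock by -0.04 ± 0.11, a sign kept in 20 of 23 alternatives and not with samples centred on their median) and 6 of 7 repressors higher, all but Nr1d1, with Cry2 keeping its sign in 22 of 23, and a median over the members of 0.09 beside -0.01.

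HFD-STZ-DR24 against HFD-STZ24 had Arntl at -0.26 ± 0.23 and Npas2 at -0.52 ± 0.32 and the other 8 members higher (Cry2 in 21 of 23 alternatives), with a median of 0.20 beside 0.01, and without replicate 7 a median of 0.10. The adipocyte markers differed between these groups too (means of 10.39 and 12.55), and with them as a covariate Arntl stood at -0.03 ± 0.34, Npas2 at -0.05 ± 0.45 and Nr1d1, otherwise at 0.11 ± 0.11 (0.05 ± 0.09 without replicate 7), at 0.45 ± 0.12. In HFD-DR24 against HFD24 the median was -0.01, Arntl differed by 0.23 ± 0.12 and no other member by more than 0.11. The other comparisons were mixed. HFD-STZ24 against HFD24 had 9 of 10 members lower, activators and repressors alike (median -0.13 beside -0.01, and 8 of 10 without replicate 7), though Arntl (-0.01 ± 0.18) kept its sign in 15 of 24 alternatives, Cry1, the member that was higher, in 17 and Per3 in 23. HFD-DR24 against SD24 had 6 lower, 4 of them repressors, and Clock higher (median -0.03 beside -0.01), with the sign of Clock kept in 17 of 24 alternatives, of Cry2 in 20, of Cry1 and Per2 in 22 and of Nr1d1 and Nr1d2 in 23. HFD-STZ16 against HFD16 had 5 higher and 5 lower (median 0.03 beside 0.00), with the sign of Per2 kept in 12 of 21 alternatives, of Cry2 in 14 and of Per1 in 19.

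A number per sample, the mean log2 value of the 3 activators minus that of the 7 repressors, put these together. Only its differences between groups can be read, since it is not scaled by gene length. It ran from -1.78 to -1.13 in SD16 (median -1.32), from -2.84 to -1.57 in HFD16 (median -2.61) and from -2.72 to -2.13 in HFD-STZ16 (median -2.14). All 5 HFD-STZ16 mice lay under all 5 SD16 mice, and 6 of the 7 HFD16 mice did. At 24 weeks the medians were -1.68 in SD24, -2.09 in HFD24, -2.25 in HFD-STZ24, -2.04 in HFD-DR24 and -2.68 in HFD-STZ-DR24, and all these groups overlapped. SD24 held both a mouse at -2.50 and one at -1.04, so the SD mice of 24 weeks covered most of the range of the fat-fed ones.

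**Figure D4:**
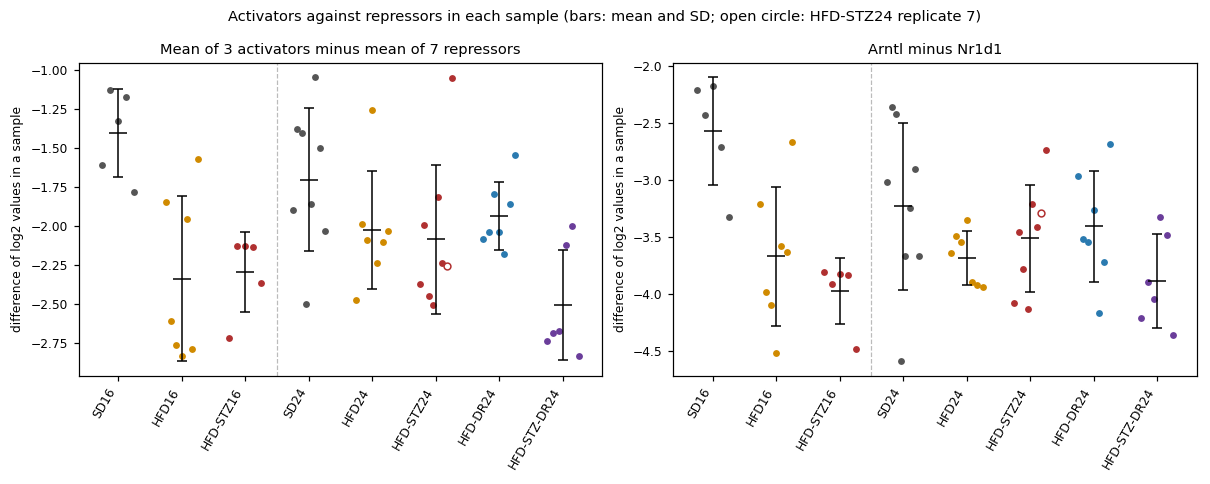
Left, mean log2 value of the 3 activators minus that of the 7 repressors in each sample (vertical axis) by group (horizontal axis); right, Arntl minus Nr1d1; bars give the mean and SD. The SD16 samples lie between -1.78 and -1.13 on the left and the HFD-STZ16 samples between -2.72 and -2.13.

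The counts past the threshold of limma's test (adjusted p under 0.05) belong to the same contrasts as the choice of the members, so nothing is read from them. In HFD16 against SD16, 0 of 10 members passed, beside 0.00557% of 17966 genes, and 4 of 10 had an unadjusted p under 0.05, beside 8.56%. In HFD-STZ16 against SD16, 0 passed, beside 0%, 6 had an unadjusted p under 0.05, beside 8.41%, and 2 (Arntl and Nr1d1) had groups that did not overlap, beside 2.09%, where chance gives 0.794%, against 0 and 0.562% in HFD16, where chance gives 0.253%. For HFD-STZ16 against HFD16 these counts were 0, beside 0%, and 1, beside 4.88%. Against SD24, 0 members passed in HFD24 (beside 0.121%), HFD-STZ24 (0.0336%), HFD-DR24 (0%) and HFD-STZ-DR24 (0%), and 1, 3, 1 and 3 had an unadjusted p under 0.05, beside 9.06%, 5.99%, 5.15% and 9.16%. In HFD-STZ24 against HFD24, 0 passed, beside 0%, and 0 had an unadjusted p under 0.05, beside 5.6%. In HFD-DR24 against HFD24, 0 passed, beside 0.0108%, and 0 had an unadjusted p under 0.05, beside 6.72%. In HFD-STZ-DR24 against HFD-STZ24, 0 passed, beside 0.0839%, and 2 had an unadjusted p under 0.05, beside 6.48%. In this last comparison Per1 passed when HFD-STZ24 replicate 7 was left out (adjusted p 0.0342, with adjusted p from 0.0342 to 0.528 over 23 alternatives), beside 0.654% of 17888 genes. With the adipocyte markers as a covariate Arntl passed in HFD-STZ16 against SD16 (adjusted p 0.0403, with a range from 0.0403 to 0.636 over 19 alternatives), beside 0.106%.

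Differences between 16 and 24 weeks follow from the levels that chose the members, so they are a description too, and nothing is read from the counts. In SD, HFD and HFD-STZ mice, 0 of 10 members passed limma's test, beside 0%, 0.0653% and 0% of genes, and 1, 2 and 1 of 10 had an unadjusted p under 0.05, beside 10.5%, 5.89% and 12.5%. Nr1d1 was 0.51 ± 0.19 (SE) higher in SD24 than in SD16, with 7 of 8 SD24 mice above the SD16 mean. Marker means differed between these groups as well, from 17.91 in SD16 to 17.59 in SD24 for Schwann cells, 8.80 to 11.40 for muscle, 10.04 to 11.85 for adipocytes and 14.60 to 14.90 for perineurial and fibroblast cells. For macrophages they went from 10.44 to 10.92 and for endothelial cells from 11.20 to 11.41. The part of these markers in the Nr1d1 difference was not tested beyond the covariates (0.48 ± 0.25 with adipocyte and 0.52 ± 0.21 with muscle markers). Npas2 was 0.72 ± 0.27 higher in HFD24 than in HFD16, with 6 of 7 HFD24 mice above the HFD16 mean, and Cry1 differed by -0.18 ± 0.08. From HFD16 to HFD24 marker means went from 17.77 to 17.51 for Schwann cells and from 10.75 to 11.28 for macrophages. The part of these markers was not tested. Nr1d2 was lower in HFD-STZ24 than in HFD-STZ16, by -0.31 ± 0.08, with 8 of 8 mice under the HFD-STZ16 mean, and by -0.26 ± 0.06 without replicate 7 of HFD-STZ24. From HFD-STZ16 to HFD-STZ24 marker means went from 14.80 to 14.43 for perineurial and fibroblast cells, 17.82 to 17.56 for Schwann cells, 11.11 to 12.55 for adipocytes and 7.55 to 9.57 for muscle, and Nr1d2 differed by -0.35 ± 0.10 with adipocyte and -0.33 ± 0.10 with muscle markers as a covariate. The part of the other markers was not tested. Arntl differed between the ages by -0.16 ± 0.19, 0.12 ± 0.17 and 0.23 ± 0.21 in SD, HFD and HFD-STZ mice.

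The change of a diet difference with age is a difference of 2 contrasts that chose the members, and it is described in the same way. For HFD against SD, 0 of 10 members passed limma's interaction test and 0 had an unadjusted p under 0.05, beside 0% and 1.67% of 18091 genes. For HFD-STZ against SD, 0 passed and 3 had an unadjusted p under 0.05, beside 0% and 4.68% of 17874 genes. They were Nr1d1, whose difference from SD was lower at 24 than at 16 weeks by -0.74 ± 0.24 (SE), Nr1d2 (-0.52 ± 0.20) and Per1 (-0.53 ± 0.23). Without HFD-STZ24 replicate 7 the values were -0.67 ± 0.23, -0.47 ± 0.20 and -0.44 ± 0.21. For Arntl the change was 0.27 ± 0.27 for HFD and 0.38 ± 0.30 for HFD-STZ. Between the HFD-STZ and the HFD model, 0 of 10 members passed for a difference in the effect of DR, beside 0%, with 1 (Per1, 0.62 ± 0.22) at an unadjusted p under 0.05, beside 1.71%. For Arntl that effect differed by -0.49 ± 0.27.

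The sample titles carry library numbers that fall into 8 runs of nearly consecutive numbers, with 3 to 8 libraries and mostly 1 library of each group in a run. What a run stands for was not given. In a fit of group plus run, 1 of 10 members passed limma's F test of the run, beside 1.86% of 18073 genes, and 1 had an unadjusted p under 0.05, beside 19.8%. It was Per3 (F 4.73, adjusted p 0.0417), which lay 0.34, 0.07, 0.07 and 0.19 above its group means in the 4 runs with the lowest numbers and at -0.17, -0.20, -0.24 and -0.20 in the other 4. The call held in 9 of 15 alternatives, with adjusted p from 0.0284 to 0.211. The other 9 members, Arntl included, did not pass.

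The companion list of 34 genes held accessory clock factors, regulators of clock proteins, rhythmic outputs and genes that respond to glucocorticoids or temperature. In each of the 13 comparisons of groups and the 3 interactions, 0 of the 34 passed limma's test, and between 1 and 10 had an unadjusted p under 0.05. The 10 were those of HFD-STZ16 against SD16, beside 8.41% of all genes, and the 1 that of HFD24 against HFD16, beside 5.89%. The share over all genes was highest for HFD-STZ24 against HFD-STZ16 (12.5%, with 6 companions). It was lowest for the change of the HFD difference with age (1.67%, with 2 companions). Between runs 1 passed, the heat shock gene Hsph1 (F 5.96, adjusted p 0.0222), beside 1.86%, and 12 had an unadjusted p under 0.05, beside 19.8%. Among the accessory factors Dbp, the D-box activator and a direct E-box target of the Arntl pair, had values from 11.35 (median 11.62) to 12.06 in SD16 and from 12.35 (median 12.42) to 12.61 in HFD-STZ16. These groups did not overlap, which held for 4 of the 34 companions (Dbp, Hlf, Ciart and Nfil3), beside 2.09% of genes and 0.794% by chance. The companions were chosen with earlier results of these data known, so nothing is read from this count. Dbp was 0.67 ± 0.13 (SE) above SD16 in HFD16 and 0.82 ± 0.12 in HFD-STZ16, and 0.11 ± 0.18, 0.11 ± 0.18, 0.11 ± 0.20 and 0.33 ± 0.19 above SD24 in HFD24, HFD-STZ24, HFD-DR24 and HFD-STZ-DR24. Ciart, another repressor, was 0.74 ± 0.22 and 0.87 ± 0.15 above SD16, and Tef, a relative of Dbp, 0.35 ± 0.13 and 0.39 ± 0.10. Against SD24, in the 4 groups above, Ciart stood at 0.09 ± 0.30, 0.11 ± 0.30, 0.17 ± 0.31 and 0.54 ± 0.31 and Tef at -0.01 ± 0.14, -0.07 ± 0.13, -0.02 ± 0.16 and 0.10 ± 0.15. Nfil3, the D-box repressor, stood on the side of Arntl, at -0.58 ± 0.25 and -1.04 ± 0.15 against SD16 in HFD16 and HFD-STZ16 and at -0.59 ± 0.25, -0.65 ± 0.23, -0.48 ± 0.24 and -0.84 ± 0.30 against SD24 in the 4 groups above. The E-box repressors Bhlhe40 and Bhlhe41 differed from SD16 by 0.14 ± 0.11 and 0.29 ± 0.19 in HFD16, and Rora, an activator of ROR elements, by 0.03 ± 0.09.

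Mice of 1 group also differed among themselves. After subtracting group means, the correlation of Arntl over the 53 samples was negative with all 7 repressors, from -0.58 (Cry2) to -0.15 (Per1), with a median of -0.43, and positive with Npas2 (0.45). Npas2 was negative with 6 of 7 repressors (median -0.21), while Clock was positive with 6 of 7 (median 0.19) and correlated at 0.54 with Nr1d2. Among the 21 pairs of repressors 18 were positive (median 0.37), led by Per2 with Cry2 (0.76) and followed by Per2 with Nr1d2 and Nr1d1 with Nr1d2 (both 0.74). As Spearman correlations the medians were -0.42 for Arntl, -0.14 for Npas2, 0.07 for Clock and 0.33 among repressors, and with run subtracted too they were -0.45, -0.17, 0.36 and 0.41 as Pearson correlations. Without HFD-STZ24 replicate 7 they were -0.42, -0.20, 0.14 and 0.34, and in the 36 samples of 24 weeks -0.43, -0.09, 0.33 and 0.37. Some of these genes also varied with cell type markers within groups. The mean of the perineurial and fibroblast markers (5 of 5 present, led by Dcn, 0 of them at 0) correlated at 0.69 with Clock, 0.63 with Nr1d2, 0.59 with Nr1d1, 0.54 with Per2, 0.39 with Npas2 and -0.29 with Arntl, and that of the Schwann cell markers at -0.52 with Nr1d1 and -0.36 with Nr1d2. Clock and Nr1d1 correlated at 0.54 and 0.53 with the macrophage markers (4 of 4, led by Csf1r) and at 0.49 and 0.54 with the endothelial markers (4 of 4, led by Pecam1). With the neuron markers (4 of 4, led by Snap25, with Chat below the filter on low values) Clock and Nr1d1 correlated at -0.63 and -0.42. Without HFD-STZ24 replicate 7 the neuron marker values were -0.38 for Clock and -0.44 for Nr1d1, and the Clock value with the endothelial markers was 0.35. The part of these markers in the correlations between clock genes was not tested. The 2 values of a point come from the same library and share its tissue content, so these correlations describe the samples and carry no p.

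**Figure D5:**
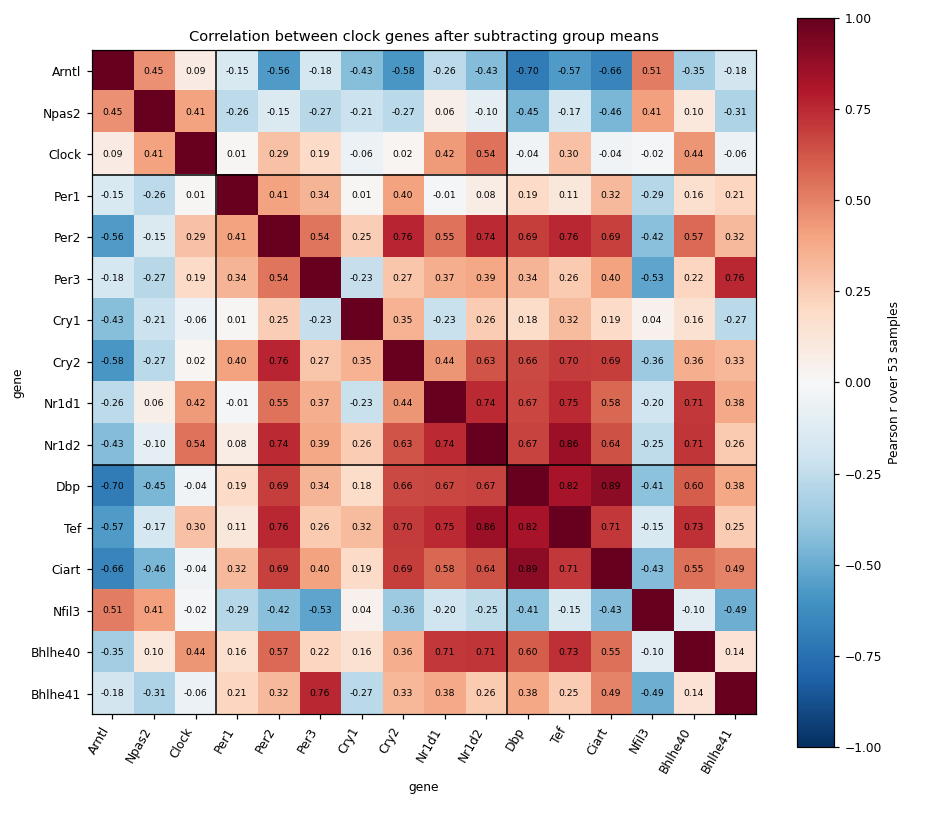
Pearson correlation between pairs of clock genes over 53 samples after subtracting group means, with genes on both axes and black lines between activators, repressors and companions. The Arntl row is negative for all 7 repressors and for Dbp (-0.70), and the repressors are mostly positive among themselves.

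Over 18063 other genes past the filter, the 5 with the highest correlation with Arntl within groups were Adamts4 (0.60), Kcna1 (0.54), Leo1 (0.54), Nfil3 (0.51) and Zbtb18 (0.50), and the 5 with the lowest were Dbp (-0.70), Cys1 (-0.67), Ciart (-0.66), Tspan4 (-0.65) and Lefty1 (-0.60). Of these, Dbp, Ciart and Nfil3 were companion clock genes, and Dbp ranked lowest also with run subtracted, by Spearman correlation and in the 36 samples of 24 weeks, while Nfil3 ranked 51 among the highest by Spearman correlation, and Kcna1, Leo1 and Zbtb18 ranked 35, 45 and 49 in those 36 samples. For Nr1d1 the highest were Nsmaf (0.79), Glb1l (0.77), Sspn (0.75), Sik3 (0.75) and Tef (0.75), and the lowest Gamt (-0.81), Tubb5 (-0.78), Lmo1 (-0.77), Hbegf (-0.77) and Fam181b (-0.76). By Spearman correlation Gamt again ranked lowest, while Tef ranked 197 among the highest and Fam181b 55 among the lowest.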

How the data were processed

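RNA-seq was read from the deposited values of 53 sciatic nerves, each a library of its own, which the labels place in 8 groups by diet, STZ and age. According to the submitters' processing notes, the authors aligned reads to mm10 with HISAT2, counted them with featureCounts and normalized the counts with DESeq2, without stating versions. The deposited values are normalized values on the log2 scale, per the labels and checked on the files, and they keep no counts. Some genes with low values held a narrow band over all samples. An example, chosen after its values were seen, is Gm20428, from -1.82 to -1.63. Whether the transform draws differences between samples together, more so at low values, was not tested. The paper states an approximate number of reads per sample, the reads behind each gene are not known, and the precision is given by the spread between mice.

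The 10 core genes, the 34 companion genes and the markers were chosen with earlier results of these data known. The text names all 10 core genes, companions of the loop, and the 5 genes with the highest and the 5 with the lowest correlation with Arntl and with Nr1d1. Other names are given as chosen after their values were seen. Some items are not reported here.

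Genes with a value above 22 in any sample were left out (25 of 49568), as were genes with a mean log2 value below that of a linear value of 10. For each pair of groups a linear model was run in limma (version 3.58.1, R version 4.3.3) whose variance prior follows the mean, and p-values were adjusted over all genes tested by the method of Benjamini and Hochberg, with a threshold of 0.05. Differences of the core genes between groups, within and between ages, and their interaction terms are a description, since the group levels chose the genes. Exact permutation p-values between ages were computed and are not used for that reason. The runs of library numbers (a gap of more than 5 starts a new run) were compared by limma's F test in a fit of group plus run. Mice were not paired. Correlations used values with group means subtracted and have no p.

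Alternatives were no filter, a filter in every sample, all 8 groups in 1 fit without and with run, a robust prior, a prior without trend, samples centred on their median, adipocyte or muscle markers as a covariate, and each sample or run left out in turn. For the runs and the correlations, leaving out HFD-STZ24 replicate 7 was chosen after seeing the data. The fits were tested on simulated data. Promoters were taken from RefSeq (GRCm38.p6) and gene positions from GENCODE M21. Tables and figures used Python 3.11.15, pandas 2.3.3, numpy 2.4.6, scipy 1.17.1 and matplotlib 3.10.9.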

Additional observations from a re-analysis of the deposited data

Results flagged for a closer look

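A sample is listed here when its gap to the nearest other sample of its group takes up an unusually large share of the group's range (Dixon's 95% critical value). Of 144 groups tested, 80 for core genes and 64 for markers, 11 had such a sample, 7 and 4, where chance gives about 1 in 20 groups. For the core genes they were Arntl in HFD-STZ16 replicate 5, lowest at a log2 value of 8.72 (nearest other 9.20), Npas2 in SD24 replicate 6, highest at 8.69 (7.71), Npas2 in HFD-DR24 replicate 1, lowest at 6.23 (7.09), and Per1 in HFD-STZ24 replicate 7, lowest at 9.87 (10.35). The others were Cry1 in SD24 replicate 6, lowest at 9.69 (9.96), Cry2 in HFD-STZ16 replicate 1, highest at 12.58 (12.28), and Nr1d2 in HFD16 replicate 7, lowest at 12.38 (12.79). SD24 replicate 6 and HFD-STZ24 replicate 7 appear more than once.

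Among the marker means, the muscle markers stood highest in SD16 replicate 2, at 14.69 (nearest other 7.93), and the neuron markers in HFD-STZ24 replicate 7, at 10.51 (6.61). The T and B cell markers stood lowest in HFD16 replicate 1, at 3.37 (4.22), and in SD24 replicate 8, at 2.83 (3.69). Causes were not tested.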

How the results depend on the processing

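The 100 log2 differences of core genes within an age were recomputed under 2270 alternatives, of which 3 moved a difference by over 1 SD, and 69 of the 100 kept their sign in all of theirs. Arntl and Npas2 kept a negative sign in all alternatives of the 6 comparisons with SD, and Per3 a positive sign. For Arntl the range was -0.87 to -0.48 in HFD16, -0.99 to -0.71 in HFD-STZ16, -0.60 to -0.41 in HFD24, -0.62 to -0.41 in HFD-STZ24, -0.37 to -0.19 in HFD-DR24 and -0.87 to -0.53 in HFD-STZ-DR24. None of the 690 alternatives of the 80 group levels moved a level by over 1 SD, and the largest shift of the median difference of all genes was 0.08, with samples centred on their median.

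Counts of core genes past limma's threshold were 0 in each comparison of groups and each interaction (0 to 6 at an unadjusted p under 0.05), and became 1 in 2 cases. In HFD-STZ16 against SD16 the adipocyte covariate gave 1 core gene (Arntl) and 3 companions (Dbp, Fkbp5 and Nfil3). With a sample left out, the companions ranged from 0 to 1 there (Dbp, adjusted p 0.00497 without SD16 replicate 5). In HFD-STZ-DR24 against HFD-STZ24, core genes and companions each ranged from 0 to 1 (Per1 without HFD-STZ24 replicate 7, with adjusted p 0.0342, and Sgk1 without HFD-STZ24 replicate 6, with adjusted p 0.0315). Between runs, the count of core genes (1, Per3) was 0 with no filter, with 24-week samples only and without runs 1, 4, 5 and 7, and that of companions (1, Hsph1) was 0 with 24-week samples only and without runs 1 and 7. Over all genes, the count between runs was 337 and ranged from 4 (24-week samples only) to 411. Leaving out runs or samples also leaves fewer samples; the cause was not tested.

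The median correlation of Clock with the repressors was 0.19 and became 0.36 with run subtracted, 0.07 as a Spearman correlation and 0.14 without HFD-STZ24 replicate 7, the last chosen after seeing the data. The reads behind each gene are not in the deposited values, so how far counting error limits them is not known.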
